A study of Mus musculus with 11 samples.

Results

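Akr1c18, Pik3c2g and Thrb mark the X-zone of the mouse adrenal gland, and their 3 rows were taken by symbol from a deposited table of read counts for 23337 gene symbols. RNA sequencing had been done on adrenal glands of male Hsd:Athymic Nude-Foxn1nu mice, a strain without a thymus, in 5 samples labelled intact and 6 labelled ORX, which the labels also call orchectomized, that is with the testes removed. All animals of both groups had been inoculated with VCaP cells, a cell line from a human prostate cancer, in study week 0 at roughly 5 to 6 weeks of age. They were assigned to a group in week 7 and their adrenals were taken in week 15. Nothing in the labels ties a sample to 1 animal, so a p-value here reflects sample-to-sample spread, part of which may be technical. The inoculation was thus shared by both groups, and glands of mice without VCaP cells were not analysed here.

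The X-zone is the innermost layer of the young mouse adrenal cortex, next to the catecholamine-producing medulla, and descends from the fetal cortex. In males it is lost around puberty, when androgen from the testis rises, and in females during pregnancy, and castrated males are known to form such a layer again. Akr1c18 encodes an aldo-keto reductase that inactivates progesterone and is the standard X-zone marker. Pik3c2g encodes a class II phosphoinositide 3-kinase, a lipid kinase. Thrb encodes the beta receptor of thyroid hormone, a ligand-bound transcription factor that has been placed in X-zone cells and is also made in many other tissues. The comparison of ORX with intact glands asks how the adrenal differs between males with and without testes. The 3 genes were chosen in it as markers of 1 cortical layer. How much of the Thrb RNA came from that layer was not tested.

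The libraries held 11368447 to 15029582 gene counts. Cortex identity was present in all of them: the 10 cortex markers, among them Star and Cyp11a1, summed to 35764 to 80545 CPM (read counts relative to the library total, scaled by TMM) in intact and to 63316 to 96043 CPM in ORX libraries. Of 9 kidney markers 3 had no count, and their sum was at most 2.44 CPM. In whole glands, more X-zone cells and more RNA of these genes per cell cannot be told apart. Markers of other zones of the gland were counted in the same test, in which 3.18% of all tested genes were called lower and 3.03% higher. Of 5 markers of the zona fasciculata, the middle cortical layer, Mc2r rose, Srd5a2 fell and 3 did not pass. Of 9 zona glomerulosa markers, the outer cortical layer, 4 fell (Hsd3b6, Agtr1a, Kcnk9 and Shh) and 5 did not pass. Of 14 adrenal medulla markers 2 fell (Slc18a2 and Npy), 12 did not pass, and 9 of the 14 were lower at an unadjusted edgeR p under 0.05. DESeq2 called 6 of the 14 lower and limma voom 9, and none was higher with either. The list's mean log2 CPM was 8.59 ± 0.29 (SD, n = 5) in intact and 7.96 ± 0.28 (n = 6) in ORX. Over all genes edgeR called 878, DESeq2 1737 (817 higher) and limma voom 2056 (961 higher). The share of all tested genes with an unadjusted edgeR p under 0.05 was not counted, and it exceeds the shares called. Both limits hold for the same counts of the lists below.

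The upstream sequences of the 3 genes are shown because their RNA moved together in the ORX libraries. They are the 250 bases before annotated starts in RefSeq (GRCm38.p6), written 5′ to 3′ on the gene's strand, with capitals marking matches to the motifs named afterwards. Shown are the window of Akr1c18 (chr13:4150647-4150896, minus strand), the window of Pik3c2g whose start matched a GENCODE transcript (chr6:139841195-139841444, plus strand) and both windows of Thrb (chr14:17660710-17660959 and chr14:17981394-17981643, plus strand). Counts per gene do not tell which start was used.
Akr1c18: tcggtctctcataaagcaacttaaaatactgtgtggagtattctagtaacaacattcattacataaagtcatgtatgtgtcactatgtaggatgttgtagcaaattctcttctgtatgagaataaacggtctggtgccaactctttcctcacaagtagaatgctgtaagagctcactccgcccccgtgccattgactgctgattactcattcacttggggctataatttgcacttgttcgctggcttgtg
Pik3c2g: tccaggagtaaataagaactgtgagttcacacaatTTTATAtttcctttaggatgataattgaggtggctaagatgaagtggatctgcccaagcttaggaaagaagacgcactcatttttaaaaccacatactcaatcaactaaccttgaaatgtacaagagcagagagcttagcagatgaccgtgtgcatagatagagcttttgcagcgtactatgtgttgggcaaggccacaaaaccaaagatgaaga
Thrb, window 1: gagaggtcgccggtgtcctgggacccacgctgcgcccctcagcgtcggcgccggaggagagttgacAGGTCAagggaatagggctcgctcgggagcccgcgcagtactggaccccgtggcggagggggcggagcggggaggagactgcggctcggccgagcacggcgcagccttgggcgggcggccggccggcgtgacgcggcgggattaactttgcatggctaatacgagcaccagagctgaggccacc
Thrb, window 2: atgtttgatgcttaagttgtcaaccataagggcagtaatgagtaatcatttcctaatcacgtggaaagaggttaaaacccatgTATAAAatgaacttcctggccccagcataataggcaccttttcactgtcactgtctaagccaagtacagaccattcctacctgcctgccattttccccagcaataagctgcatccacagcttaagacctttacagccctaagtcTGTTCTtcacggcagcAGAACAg

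No motif was found in all of these windows. The nuclear receptor half-site AGGTCA stood in the outer window of Thrb, and 14.0% of 32851 RefSeq windows of that length held it on either strand. The steroid receptor half-site AGAACA stood in the inner Thrb window on both strands, from 23 to 18 and from 7 to 2 bases before the start. It was in 16.1% of all windows. TATAAA stood in the inner windows of Thrb and, on the opposite strand, Pik3c2g (12.4% of all windows). CAAGGTCA, the site of the cortical regulator SF-1, which overlaps AGGTCA, was in none of the 5 windows of the 3 genes and in 1.33% of all windows. Of the 5 windows, the GATA factor site AGATAA was in the outer Pik3c2g window, which is not shown, and 9.99% of all windows held it. The G and C content was 41.6% for Akr1c18, 40.0% for the Pik3c2g window shown, and 71.6% and 44.0% for the Thrb windows, against a median of 52.4%. A match is a string of letters and not a bound site.

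All 3 genes were higher in ORX. Akr1c18 and Pik3c2g went from near the limit of detection to strong expression, and Thrb rose from a moderate level. All 3 of 3 passed as higher (quasi-likelihood test of edgeR, two-sided, Benjamini-Hochberg adjusted over 14139 tested genes, threshold 0.05), where 3.03% of all tested genes were called higher, 3.18% lower and 6.21% either way. In 2 of 3, Akr1c18 and Pik3c2g, every ORX library lay above every intact library, which held for 2.92% of tested genes. The median log2 fold change was 8.54 for the 3 genes and 0.01 for all tested genes. By fold change Akr1c18 stood in place 2, Pik3c2g in place 3 and Thrb in place 197 of all tested genes.

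Akr1c18 lies on chromosome 13 (4132615 to 4150654, minus strand, GRCm38), spans 18040 bases and has a longest transcript of 1200 bases in 9 exons. Its level was 6.12, 4.84, 0.662, 0.921 and 0.758 CPM in intact 1 to 5, from 84, 57, 10, 11 and 10 counts. Intact 1 and 2 thus stood above the other 3 intact libraries, and their counting intervals did not meet those of the others (the lower 95% bound was 3.67 CPM in intact 2 and the highest upper bound of the other 3 was 1.65 CPM; exact Poisson, counting error only). In ORX it ranged from 746 CPM in ORX 3 over a median of 1333 to 2392 CPM in ORX 1. The lowest ORX library was 122-fold above the highest intact library. The means were 2.66 ± 2.62 CPM (SD, n = 5) and 1385 ± 608 CPM (n = 6), a log2 fold change of 9.02 ± 0.74 (SE; edgeR adjusted p = 1.92e-05). By mean CPM it was in place 12432 of the tested genes in intact and in place 37 in ORX.

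Pik3c2g lies on chromosome 6 (139587221 to 139969284, plus strand), spans 382064 bases and has a longest transcript of 4407 bases in 24 exons. Its level was 0.948, 0.425, 0.464, 0.167 and 0.227 CPM in intact 1 to 5, from 13, 5, 7, 2 and 3 counts. These intervals overlap, from 0.0203 to 0.605 CPM in intact 4 and 0.505 to 1.62 CPM in intact 1, and the order of the intact libraries was not tested. In ORX it ranged from 42.1 CPM in ORX 3 over a median of 158 to 405 CPM in ORX 1. The groups were 44.4-fold apart at their nearest libraries. The means were 0.446 ± 0.307 CPM (n = 5) and 173 ± 131 CPM (n = 6; log2 8.54 ± 0.73, edgeR adjusted p = 2.51e-05).

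Thrb lies on chromosome 14 (17660261 to 18038090, plus strand), spans 377830 bases and has a longest transcript of 6200 bases in 7 exons. The predicted antisense gene Gm48321 overlaps it, and since the counting is not stated to use strand, reads of that gene may be among its counts. Its level was 25.7, 25.3, 27.6, 39.1 and 31.4 CPM in intact 1 to 5. In ORX it ranged from 32.7 CPM in ORX 6 over a median of 82.4 to 113 CPM in ORX 1. ORX 6 lay inside the intact range and ORX 3, at 43.4 CPM, little above it, while ORX 1, 2 and 4 lay between 101 and 113 CPM. The means were 29.8 ± 5.71 CPM (n = 5) and 77.7 ± 35.8 CPM (n = 6; log2 1.38 ± 0.31, edgeR adjusted p = 0.0198). The call ended without intact 1, intact 2, intact 5 or ORX 2 (edgeR adjusted p 0.0509 to 0.0555). The medulla score is itself lower in ORX. Once it was added to the model, the log2 fold change of Thrb was 0.31 (edgeR adjusted p = 0.719), that of Pik3c2g 6.47 and that of Akr1c18 9.46, both still called (edgeR adjusted p = 0.00133 and 0.00132).

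**Figure D1:**
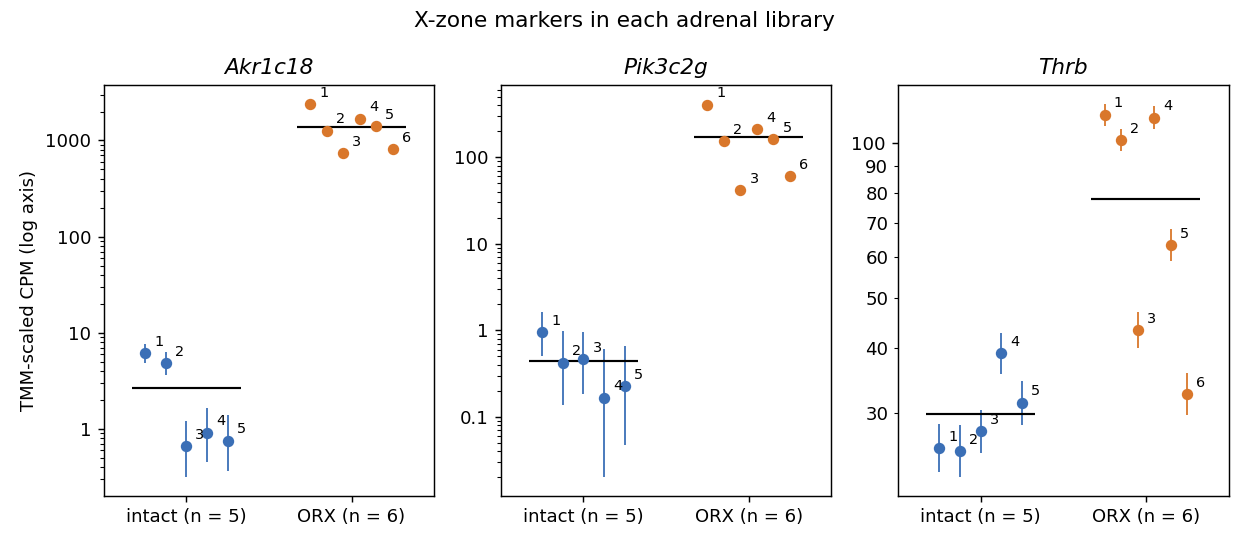
Each point is 1 library (number beside it), with TMM-scaled CPM on a vertical log axis of its own for each gene, with 5 intact libraries in blue and 6 ORX libraries in orange; vertical lines are exact Poisson 95% counting intervals and black bars are group means. For Akr1c18 and Pik3c2g all orange points lie above all blue points, and for Thrb the ORX 6 point (32.7 CPM) lies within the intact range of 25.3 to 39.1 CPM.

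Per length of the longest transcript, the order of the levels differed between the groups. In intact glands Thrb was at 4.81 ± 0.92 CPM per kilobase (SD, n = 5), Akr1c18 at 2.22 ± 2.18 and Pik3c2g at 0.101 ± 0.070. The ranges of 1 SD around Thrb and Akr1c18 overlapped. In ORX glands Akr1c18 was at 1154 ± 506 CPM per kilobase (n = 6), Pik3c2g at 39.2 ± 29.7 and Thrb at 12.5 ± 5.77. The 3 levels were not tested against each other. Pik3c2g has 15 annotated transcripts. Over the merged exons of all transcripts its ORX level was 13.7 CPM per kilobase and that of Thrb 10.5.

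Within the ORX group the genes also varied together. The order of the libraries was the same for Akr1c18 and Pik3c2g, with ORX 1 highest, then ORX 4, 5, 2 and 6, and ORX 3 lowest. Thrb had the order ORX 1, 4, 2, 5, 3 and 6. Over the 6 ORX libraries Akr1c18 and Pik3c2g had a Pearson r of 0.992 of log2 CPM (exact permutation p = 0.00139, the smallest that 6 libraries allow; adjusted over 3 pairs 0.00417) and a Spearman rho of 1 (exact permutation p = 0.00278, adjusted 0.00833). Without ORX 1 and ORX 3, the farthest from the median of Akr1c18, r was 0.988 in the 4 libraries left.

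Thrb followed both genes less tightly. With Akr1c18 its r was 0.871 (exact permutation p = 0.0319, adjusted 0.0319) and rho 0.886 (exact permutation p = 0.0333, adjusted 0.0333), and r was 0.884 without the same pair of libraries. With Pik3c2g its r was 0.881 (exact permutation p = 0.0208, adjusted 0.0313) and rho 0.886 (exact permutation p = 0.0333, adjusted 0.0333). Without ORX 3 and ORX 6, the farthest from the median of Pik3c2g, this r was 0.559 in 4 libraries. Another pair was left out here than for Akr1c18 with Thrb, so 0.884 and 0.559 do not compare the 2 relations. Leaving out any 1 of the 6 ORX libraries, the adjusted exact permutation p of Akr1c18 with Thrb was 0.0583 to 0.108, with r from 0.846 to 0.932. For Pik3c2g with Thrb it was 0.0375 to 0.108, and stayed under 0.05 only without ORX 3 or ORX 6. For the 5 intact libraries, too few for the same test and with few counts of Akr1c18 and Pik3c2g, the levels alone are given. There Thrb was lowest in intact 1 and 2 (25.7 and 25.3 CPM), where Akr1c18 was highest (6.12 and 4.84 CPM). Thrb was highest in intact 4 (39.1 CPM). The few counts of Pik3c2g are not set beside these values. Any difference from the ORX group was not tested.

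**Figure D2:**
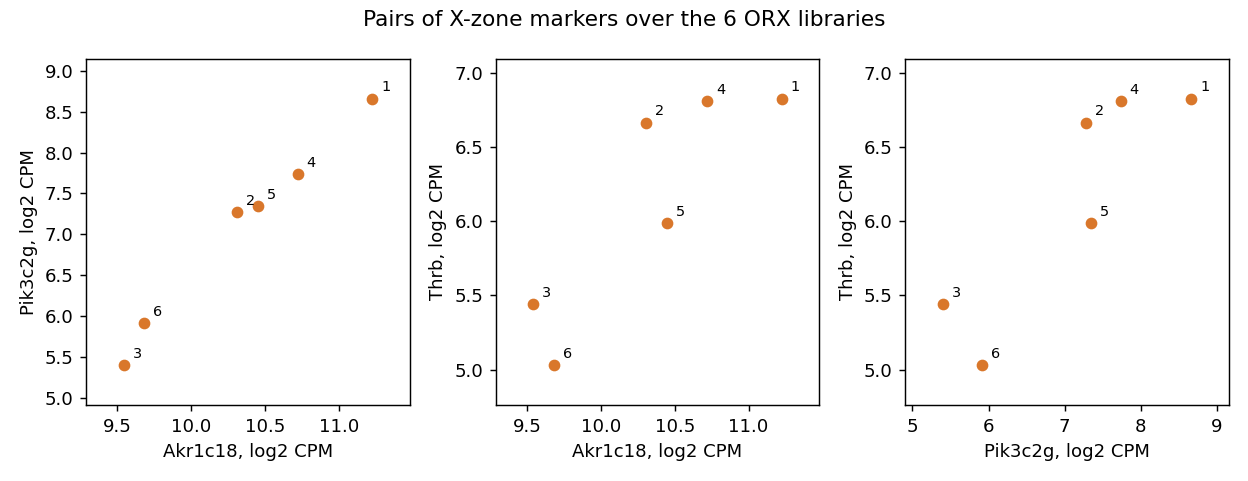
Each point is 1 of the 6 ORX libraries (number beside it), with log2 TMM-scaled CPM of 1 gene on each axis, for the 3 pairs of genes. Akr1c18 and Pik3c2g lie close to a line (r = 0.992), while in both plots of Thrb ORX 3 and ORX 6 stand low and the other 4 above.

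The genes differed in how widely they ranged over the ORX libraries. Pik3c2g spanned 9.62-fold from the lowest to the highest library, Thrb 3.47-fold and Akr1c18 3.21-fold. The ratio of Akr1c18 to Pik3c2g counts was therefore not constant: it was 5.91 in ORX 1, 7.92 in ORX 4, 8.18 in ORX 2, 8.64 in ORX 5, 13.7 in ORX 6 and 17.7 in ORX 3. It was lowest in the library with the highest levels of both genes and highest in the library with the lowest. The coefficient of variation over ORX libraries was 75.8% for Pik3c2g, 43.9% for Akr1c18 and 46.1% for Thrb.

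Markers of other parts of the tissue differed among the same libraries. The medulla score, the mean log2 CPM of its markers, was 8.29 in ORX 3 and 8.31 in ORX 6, the libraries lowest in the X-zone genes, 7.58 in ORX 1, the highest, and 7.83 to 7.89 in ORX 2, 4 and 5. The fat score was 8.79 in ORX 3 and 8.60 in ORX 6 and 7.33 to 7.97 in the other 4. The cortex score was lowest in ORX 1 (11.31) and highest in ORX 5 and ORX 6 (12.15 in both). Taken relative to the cortex score, an alternative chosen after the data were seen, r was 0.984 for Akr1c18 and Pik3c2g, 0.936 for Akr1c18 and Thrb and 0.912 for Pik3c2g and Thrb. The part of the medulla and fat in the shared order was not tested.

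**Figure D3:**
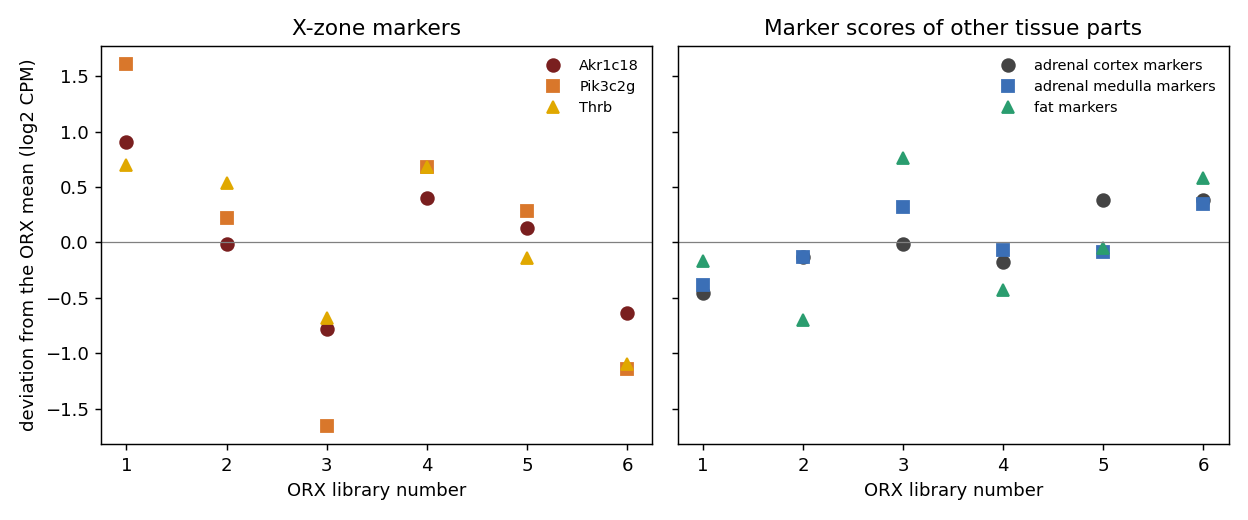
Points are the deviations from the mean of the 6 ORX libraries in log2 CPM (vertical axis) by library number (horizontal axis), on the left for Akr1c18, Pik3c2g and Thrb and on the right for the mean of the cortex, medulla and fat markers. In ORX 3 and ORX 6 the 3 X-zone genes lie below 0 and the medulla and fat scores above it.

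ORX 6 also stood apart by transcript length. In the length group of Akr1c18 (the shortest of 10 groups) the median gene of ORX 6 was 0.61 log2 units above the ORX mean, and Akr1c18 itself was 0.64 below. In the group of Thrb, long transcripts, the median gene of ORX 6 was 0.40 below the ORX mean and Thrb was 1.10 below. For Pik3c2g the values were 0.13 and 1.14 below. After a correction for transcript length, also chosen after the data were seen, r over the ORX libraries was 0.922 for Akr1c18 and Pik3c2g, 0.927 for Akr1c18 and Thrb and 0.917 for Pik3c2g and Thrb. The log2 fold change of Thrb was then 1.48 (edgeR adjusted p = 0.00496).

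By likeness over all 11 libraries (Pearson r of log2 CPM among 12786 genes with a mean of at least 1 CPM, Gm and Rik symbols left out, a description dominated by the difference between the groups), the genes nearest to Akr1c18 were Akr1d1, a steroid 5-beta-reductase (r = 0.997), the carbonic anhydrase-related Car8 (0.988) and the protease inhibitor Serpinb1a (0.986). Nearest to Pik3c2g were Serpinb1a, Akr1c18 and Car8 (each 0.985). Nearest to Thrb were the taurine transporter gene Slc6a6 (0.970), the ubiquitin ligase scaffold Cul4a (0.963) and the guidance factor Slit2 (0.957). In place of each other, Pik3c2g was in place 5 for Akr1c18, and Thrb in place 446 for Akr1c18 and 320 for Pik3c2g. These genes were picked by likeness over the same libraries, so a shared order with Thrb is no separate result. For Slc6a6, ORX 3 and ORX 6 were the lowest ORX libraries (675 and 505 CPM, against 975 to 1634 in the other 4). Slc6a6 (log2 1.27 ± 0.30; edgeR adjusted p = 0.0274) and Slit2 (1.48 ± 0.31; edgeR adjusted p = 0.0145) passed the group test. Cul4a did not (log2 0.56 ± 0.20; edgeR adjusted p = 0.109).

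Over the 6 ORX libraries alone, Pik3c2g was the gene most like Akr1c18 of all 12786, and Akr1c18 was in place 3 for Pik3c2g. High correlations over these 6 libraries were not confined to the 3 genes: 178 genes (1.39%) had an r of at least 0.9 with Akr1c18, 216 (1.69%) with Pik3c2g and 487 (3.81%) with Thrb. The next genes for Akr1c18 were Med23 and Mcm3ap (each 0.990), neither of which passed the group test (log2 -0.21 ± 0.17 and -0.12 ± 0.13; edgeR adjusted p = 0.484 and 0.63). Specc1l and Ttyh2 stood before Akr1c18 for Pik3c2g (0.997 and 0.995), and Zzef1, Ankfy1 and Cdk19 were most like Thrb (0.997, 0.996 and 0.993). None of these 5 passed the group test (edgeR adjusted p 0.0726 to 0.613). The likeness over ORX libraries thus also takes in genes without a called difference between the groups.

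The enzymes around Akr1c18 were taken from a list of 20 genes that make, convert or bind progesterone. Of its 14 tested genes 9 rose, Akr1c18 among them, 2 fell and 3 did not pass (median log2 1.03, against 0.01 over all genes). Over all tested genes 3.03% were called higher and 3.18% lower. Akr1c13, which lies 40.5 kilobases from Akr1c18, was at 7.48 to 15.2 CPM in intact and 17.0 to 51.9 CPM in ORX, without overlap (log2 1.71 ± 0.29; edgeR adjusted p = 0.00405). Akr1d1, which reduces the same steroids at another bond, reached 1430 ± 586 CPM in ORX (n = 6), close to the mean of Akr1c18, and rose by 9.04 ± 0.74. Srd5a1 and Srd5a3, 5-alpha-reductases, rose by 1.5 ± 0.19 and 0.71 ± 0.14, and Hsd3b1, which makes progesterone, by 1.14 ± 0.21 (edgeR adjusted p 0.0097 or below). Cyp21a1, Cyp17a1 and the progesterone-binding membrane protein gene Pgrmc1 also rose. For Cyp17a1 the groups overlapped (1.52 to 15.7 CPM in intact and 1.87 to 136 CPM in ORX). Srd5a2 (-0.89 ± 0.25) and Hsd3b6 (-2.05 ± 0.48), the latter also a glomerulosa marker, fell. Pgr, the nuclear progesterone receptor, had 67 counts over the 11 libraries and was not tested. Akr1c14, which acts on reduced progesterone, was at 1.34 ± 0.54 and 3.01 ± 1.11 CPM and did not pass (edgeR adjusted p = 0.0719).

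Of the tested genes beside the members in the genome, Akr1c13 alone passed as higher. Within 500 kilobases of Akr1c18, 5 genes of the annotation were tested, of which Akr1c13 rose and Asb13, Net1, Akr1c14 and Akr1e1 did not pass (log2 -0.17 to 1.15). Of these, only Net1 had a negative difference, and Akr1c14 (log2 1.15 ± 0.36) had an unadjusted edgeR p of 0.00613. Calls of DESeq2 and limma voom were not counted for this group. For all tested genes the share called higher was 3.03%. The other Akr1c genes of the cluster were near 0: Akr1c6 had 57 counts over the 11 libraries, Akr1c12 55, Akr1c19 23, Akr1c20 10 and Akr1c21 4. The Akr1c genes are similar in sequence, and the counting could have split reads between them. Near Pik3c2g only Plekha5 was tested (log2 0.09 ± 0.26; edgeR adjusted p = 0.868). The nearest coding gene, Plcz1, had 2 counts. Near Thrb, 4 genes were tested, the nuclear receptor Nr1d2 (log2 0.38 ± 0.24), Rpl15, Nkiras1 and Ube2e1, and none passed (edgeR adjusted p 0.373 to 0.902). Their unadjusted edgeR p-values were 0.137, 0.45, 0.79 and 0.717, and DESeq2 and limma voom called 0 of the 4.

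Around Pik3c2g, a list of 28 phosphoinositide kinases, phosphatases and effectors was tested in full. Pik3c2g and Akt1, a protein kinase downstream of class I kinases, rose, none fell and 26 did not pass (median -0.02). The shares called over all tested genes were 3.03% higher and 3.18% lower. Of the genes with a negative difference 5 had an unadjusted edgeR p under 0.05, and DESeq2 called 2 and limma voom 3 of the list lower. On the higher side DESeq2 called 2 and limma voom 3. Akt1 was at 331 ± 39 CPM in intact and 471 ± 50 CPM in ORX glands (log2 0.51 ± 0.14; edgeR adjusted p = 0.0431). The remaining class II kinases stood at log2 -0.25 ± 0.22 for Pik3c2a and -0.31 ± 0.29 for Pik3c2b (edgeR adjusted p = 0.522 and 0.569). In intact glands Pik3c2a (38.3 ± 6.18 CPM) and Pik3c2b (12.3 ± 3.79 CPM) were both counted far more often than Pik3c2g, and in ORX glands Pik3c2g (173 ± 131 CPM) was counted more often than Pik3c2a (32.2 ± 10.1 CPM), in CPM and not per length.

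Around Thrb, a list of 22 thyroid hormone genes had 20 tested members. Thrb rose, Crym and Hr fell, and 17 did not pass (median -0.35), where 3.03% of all tested genes were called higher and 3.18% lower. Crym, which encodes a thyroid hormone-binding protein of the cytosol, went from 12.9 to 24.2 CPM in intact libraries to 4.19 to 10.4 CPM in ORX libraries without overlap (log2 -1.85 ± 0.27; edgeR adjusted p = 0.00154). Hr, a corepressor gene that thyroid hormone induces in brain, was at 21.7 ± 7.34 CPM in intact and 9.66 ± 1.92 CPM in ORX glands, also without overlap (log2 -1.17 ± 0.23; edgeR adjusted p = 0.00958). Thra, the alpha receptor, was at 73.0 ± 21.0 and 85.4 ± 22.2 CPM (log2 0.23 ± 0.22; edgeR adjusted p = 0.572). The deiodinase Dio1 had no count, and Dio2 and Dio3, which activate and inactivate the hormone, did not pass (log2 -1.11 ± 0.63 and 0.14 ± 0.47). Klf9, Thrsp and Me1, known targets in other tissues, were at log2 -0.52, -0.37 and -0.60 and did not pass (edgeR adjusted p 0.234 to 0.626).

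**Figure D4:**
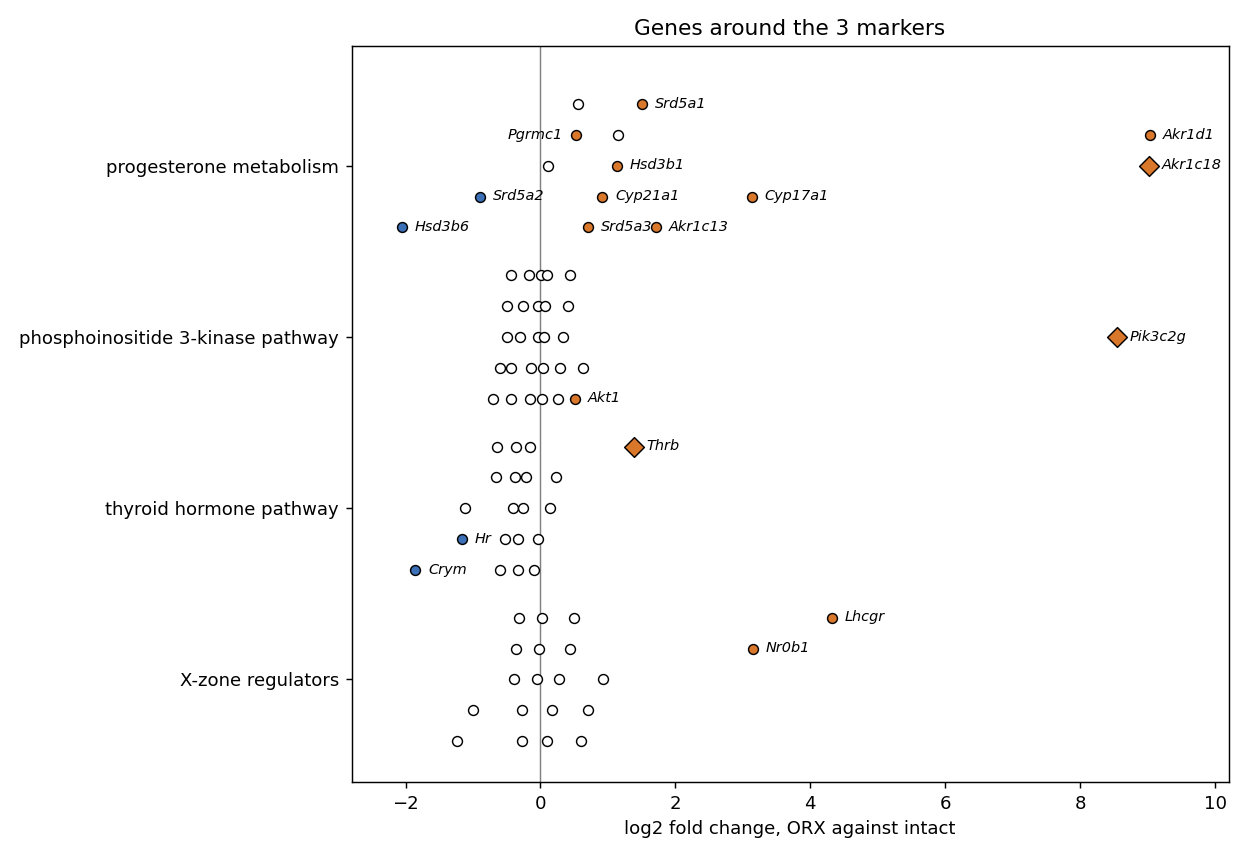
Each symbol is 1 tested gene, placed along the horizontal axis by its log2 ratio of ORX to intact and grouped into 4 lists; orange fill marks genes called higher, blue fill genes called lower, and open symbols the rest; diamonds are Akr1c18, Pik3c2g and Thrb, and the height within a list carries no value. Pik3c2g and Thrb each stand to the right of the other genes of their list, while Akr1c18 is joined at about 9.0 by Akr1d1.

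A last list held 21 genes that are known to control the X-zone or the growth and regression of the cortex. Of 20 tested genes 2 rose, none fell and 18 did not pass (median 0.06). Among all tested genes 3.03% were called higher and 3.18% lower. DESeq2 called 5 of the 20 higher and limma voom 4, and 5 were higher at an unadjusted edgeR p under 0.05. On the lower side 1 had an unadjusted edgeR p under 0.05, and DESeq2 and limma voom called 0. Nr0b1, a repressor beside SF-1 whose loss in mice keeps the X-zone from regressing, went from 2.41 to 5.84 CPM in intact to 17.3 to 40.9 CPM in ORX without overlap (log2 3.15 ± 0.29; edgeR adjusted p = 4.1e-05). Lhcgr, the receptor of luteinising hormone, rose (log2 4.32 ± 0.84; edgeR adjusted p = 0.00946). Its groups overlapped, at 0.251 to 3.06 CPM in intact and 0.718 to 37.1 CPM in ORX. Lhcgr was lowest among the ORX libraries in ORX 1 (0.718 CPM, below the intact mean of 1.02 CPM), where the 3 X-zone genes were highest. Nr5a1, which encodes SF-1, was at log2 0.43 ± 0.29 (edgeR adjusted p = 0.406). Inha, the inhibin subunit, went from 41.5 ± 6.95 to 67.6 ± 19.5 CPM and did not pass (edgeR adjusted p = 0.0524), and Prlr, the prolactin receptor, from 134 ± 51.4 to 256 ± 69.2 CPM (edgeR adjusted p = 0.058).

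Cells outside the adrenal that express these genes were checked by their markers. Of 10 liver markers 6 were tested and none passed with edgeR, DESeq2 or limma voom, while 3 were higher at an unadjusted edgeR p under 0.05. At the adjusted threshold edgeR called 3.03% of all tested genes higher. That share is no measure for the 3, since the share of all genes at an unadjusted p under 0.05 was not counted. The sum of the 10 was 5.63 to 75.5 CPM in intact and 10.1 to 330 CPM in ORX libraries, with ORX 6 highest and ORX 2 lowest of its group. ORX 2 had 1267 CPM of Akr1c18 and ORX 6 had 821 CPM. Among intact libraries the order was another: the liver sum was highest in intact 1 and 2 (75.5 and 28.5 CPM), where Akr1c18 was also highest (6.12 and 4.84 CPM). In intact 3, 4 and 5 the liver sum was 5.63, 6.61 and 16.7 CPM, with Akr1c18 at 0.662, 0.921 and 0.758 CPM. Of 12 gonadal markers 7 were tested and none passed with edgeR or DESeq2, while 1 was higher with limma voom and 1 at an unadjusted edgeR p under 0.05. Their sum was 80.1 to 265 CPM in intact and 217 to 408 CPM in ORX, most of it from Gsg1l (134 ± 76.5 and 253 ± 86.0 CPM). The sum thus says little about the other markers, and whether Gsg1l marks gonadal cells was not tested. Cyp19a1 and Fshr, defining genes of follicle cells, had 14 and 11 counts over all libraries. They and Insl3, a Leydig cell gene, were below 1 CPM in every library. Other markers of the list were counted more often. Foxl2 was at 4.57 ± 4.19 CPM in intact and 9.61 ± 5.2 CPM in ORX, and Amhr2 at 4.02 ± 3.31 and 10.8 ± 9.1 CPM. Their log2 fold changes were 1.07 ± 0.7 and 1.42 ± 0.71, and that of Hsd17b3 was 1.31 ± 0.64. Dhh was at log2 0.27 ± 0.2, Sox9 at -0.67 ± 0.33 and Amh at -0.57 ± 0.51. None of these passed (edgeR adjusted p 0.245 to 0.538). The part of liver or gonadal RNA in the levels of the 3 genes was not tested.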

How the data were processed

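TruSeq libraries of adrenal RNA were sequenced, and the labels cite both a stranded and a v2 guide. The authors deposited raw counts, 1 row for each symbol. Tools listed in the submitters' processing notes are bcl2fastq (1.8.4) and Subread (1.5.1), with the build mm10 and no roles; the annotation, strand setting and handling of multi-mapped reads were not stated. The table holds 2 identical copies of itself, and the first was used. Genes were kept by filterByExpr (minimum count 10, total 15), which left 14139 genes with 99.9% of counts, scaled by TMM and fitted in R 4.3.3 with edgeR 4.0.16 (glmQLFit and glmQLFTest, two-sided, adjusted over all tested genes at 0.05), with no covariate. Standard errors were derived from the fold change and F. The log2 CPM used a prior count of 0.5. Correlations over ORX libraries were tested by exact permutation. In simulated counts for 14139 genes of this comparison, 50.7% of 67 genes changed 2-fold and 97% of 66 changed 4-fold were recovered. Of 67 genes changed 1.5-fold only 4.48% were recovered. A gene that did not pass may thus still differ 1.5-fold or 2-fold. Every pair of libraries differed by more than counting noise (chi-square per degree of freedom of 25.5 or more). Alternatives also used DESeq2 1.42.0 and limma 3.58.1 (voom). Gene models are GENCODE M21 (GRCm38), matched by symbol, and promoters are RefSeq's. By rule, the text names the 3 members, the 3 genes most like each, tested neighbours within 500 kilobases and, of each list, up to 6 genes past the threshold by smallest p plus Thra, Pik3c2a, Pik3c2b, Akr1c14, Nr0b1, Nr5a1 and Inha; 1 further gene of the rule is not reported here. Other named genes (Hsd3b6, Cyp17a1, Pgrmc1, Srd5a2, Pgr, the deiodinases, Klf9, Thrsp, Me1, Prlr, untested neighbours and tissue markers) were chosen after their values were seen. So were the alternatives of transcript length and cortex score. The members, lists and tests were chosen with earlier results of these data known.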

Additional observations from a re-analysis of the deposited data

How the results depend on the processing

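The log2 fold changes of Akr1c18 and Pik3c2g kept their direction and call in all 22 alternatives (8.75 to 9.61 and 6.47 to 9.01). Thrb kept its direction in all 22 (log2 0.31 to 1.54) and its call in 16. It was lost with the medulla score as a covariate (log2 0.31; edgeR adjusted p = 0.719), at a threshold of 0.01 (log2 1.38) and without any 1 of 4 libraries; without 1 library its log2 fold change was 1.23 to 1.54, that of Akr1c18 8.75 to 9.61 and that of Pik3c2g 8.09 to 9.01. The number of genes called, 878, was 1737 with DESeq2, 2056 with limma voom, 109 with the medulla score, 260 at 0.01 and 408 to 1280 without 1 library. With the sample number as a replicate block it was 416, and all 3 members stayed called (Thrb log2 1.47; edgeR adjusted p = 0.0173). Same-numbered samples did not deviate together (correlations -0.25 to 0.16), so the numbers were not taken as pairs, and ORX 6 has no partner and drops out of that fit. Over ORX libraries, r without 1 library was 0.988 to 0.997 for Akr1c18 and Pik3c2g, 0.846 to 0.932 for Akr1c18 and Thrb and 0.870 to 0.909 for Pik3c2g and Thrb. Without the 2 farthest libraries r was 0.988, 0.884 and 0.559 (adjusted exact permutation p = 0.125, 0.188 and 0.375). These were ORX 1 and ORX 3 for both relations of Akr1c18, and ORX 3 and ORX 6 for Pik3c2g with Thrb. The other scalings and scales left all 3 relations called. In intact libraries Akr1c18 had 172 counts in all and Pik3c2g 30, and their log2 CPM had an SD of 1.52 and 0.88 there.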
